A study of Homo sapiens with 7 samples.

Results

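RNA levels of 10 genes of the BCL2 family were followed through a dasatinib dose escalation of K562, a human chronic myeloid leukemia cell line driven by the BCR::ABL1 fusion kinase. The genes were chosen by name, with earlier results of these data known, and all 10 were found among the 25702 gene IDs counted. They comprise 3 prosurvival genes (BCL2, BCL2L1 and MCL1), 5 BH3-only genes (BCL2L11, BBC3, PMAIP1, BAD and BID) and 2 effector genes (BAX and BAK1).

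BCL2 family proteins decide whether the outer mitochondrial membrane is breached, the step that releases cytochrome c and starts the caspase cascade. The effectors BAX and BAK1 form the pores, the prosurvival proteins hold them in check, and the BH3-only proteins relay stress or loss of growth signal by binding prosurvival proteins or by activating the effectors. In BCR::ABL1 cells, kinase inhibitors such as dasatinib are known to kill in large part through BIM, the product of BCL2L11, while active BCR::ABL1 supports BCL-XL, the product of BCL2L1, through STAT5.

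The 7 libraries came from 7 K562 lines, each sequenced from 1 library. The controls were drug naive K562 and a line kept in DMSO, the drug vehicle. The dasatinib resistant (DasR) lines were intermediates of 1 escalation, taken at 10, 15 and 25 nM dasatinib (early stage) and at 50 and 200 nM dasatinib (late stage), so the lines of a stage descend from each other and p-values measure the spread between these libraries. The stages were set by the study from the clustering of these same libraries, and stage, dose and time in culture cannot be told apart. Libraries held 20059656 to 27844799 counted reads, and levels are given as CPM, counts scaled to these totals.

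The labels call the cells erythroblasts, and the 10 erythroid marker genes were counted in every library, with the fetal globin gene HBG2 the most abundant on average. Their summed level was 3841 CPM in drug naive and 3237 CPM in DMSO cells, 9664, 11020 and 8222 CPM in the 10, 15 and 25 nM DasR intermediates, and 5652 and 4467 CPM in the 50 and 200 nM DasR intermediates. Of the 10 erythroid markers, 8 exceeded both controls in all 3 early stage lines. Early stage lines and controls did not overlap, in either direction, in 69.8% of all genes tested below. The exceptions were GATA1, at 165, 206 and 191 CPM at 10, 15 and 25 nM against 201 and 217 CPM in the controls, and HBE1. HBE1 was at 473, 1651 and 720 CPM against 651 and 600 CPM. The embryonic globin gene HBZ reached 2856 CPM at 15 nM against 59.5 CPM in drug naive cells. The rise of these 8 markers ran alongside the BCL2L11 values below, and its part in them was not tested. The defining genes of other lineages were at or near 0, with PF4, GP9, MS4A1 and MPO below 0.2 CPM in every line and CDH5 and GP1BB at 0. CD3D, LYZ, VWF and the megakaryocyte gene ITGA2B were present. ITGA2B was at 63.9 and 52.5 CPM in drug naive and DMSO cells, 13.4, 5.96 and 13.2 CPM at 10, 15 and 25 nM, and 56.8 and 99.2 CPM at 50 and 200 nM.

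Upstream sequences are shown for 3 members: BCL2L11 and BBC3, the genes with the clearest differences, and BAX, whose window held the most matches. The 250 bases before the start were taken from RefSeq promoters of build GRCh38.p14, in which 9 of the 10 members had 15 windows between them. Capitals mark matches on either strand to GTAAACA, the core bound by FOXO factors, or to CACGTG, the E-box bound by MYC and other factors. TTCNNNGAA, the STAT motif, and TGATGCAAT, an ATF4 composite motif, were also searched on both strands.
BCL2L11, chr2:111120664-111120913, plus strand: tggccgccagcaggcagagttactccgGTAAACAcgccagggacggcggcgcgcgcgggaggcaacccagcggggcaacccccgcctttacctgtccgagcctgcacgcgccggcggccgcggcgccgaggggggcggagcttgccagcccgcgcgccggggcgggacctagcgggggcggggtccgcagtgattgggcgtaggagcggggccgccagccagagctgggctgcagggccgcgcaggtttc
BBC3, chr19:47232668-47232917, minus strand: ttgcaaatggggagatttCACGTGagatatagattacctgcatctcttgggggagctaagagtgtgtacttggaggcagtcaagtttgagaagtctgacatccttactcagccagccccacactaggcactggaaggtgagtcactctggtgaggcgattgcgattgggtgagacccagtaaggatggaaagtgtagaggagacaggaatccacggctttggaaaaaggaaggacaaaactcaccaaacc
BAX, chr19:48954625-48954874, plus strand: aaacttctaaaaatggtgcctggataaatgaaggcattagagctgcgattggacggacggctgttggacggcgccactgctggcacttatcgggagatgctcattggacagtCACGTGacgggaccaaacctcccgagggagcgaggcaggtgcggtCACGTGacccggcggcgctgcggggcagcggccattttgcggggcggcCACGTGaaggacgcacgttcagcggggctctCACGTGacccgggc

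BCL2L11 held GTAAACA 223 bases before its start, which 3.42% of the 35116 RefSeq promoter windows held, and no other member window did. CACGTG was in 4 of the 15 member windows, against 7.26% of all windows. BAX held it 138, 93, 45 and 14 bases before its start and BBC3 held it 232 bases before. The 2 BID windows that held it overlap, and their matches, 106 and 47 bases before their starts, are the same site counted in both. No member window held TTCNNNGAA or TGATGCAAT, found in 7.66% and 0.236% of windows. The windows also extended 50 bases past the start, and a match of letters shows no binding. The BCL2L11 window was 76.8% G and C, the BAX window 62.8% and the BBC3 window 49.2%.

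Levels of different genes were compared per kb of exon. The prosurvival genes BCL2L1 and MCL1 were the most abundant members in every group, at 58.3 ± 2.31 and 57.0 ± 1.15 CPM per kb in the controls (SD, n = 2), whose difference was smaller than the spread. The effector BAK1 stood at 13.9 ± 1.26 CPM per kb and BAX at 9.67 ± 1.34 CPM per kb in the controls. Among the BH3-only genes, PMAIP1 was the most abundant in the controls at 14.3 ± 0.73 CPM per kb, and BBC3 followed at 11.3 ± 0.36 CPM per kb. BID at 9.25 ± 0.775 CPM per kb overlapped BAX. BCL2L11 and BAD stood at 4.8 ± 0.0695 and 4.6 ± 0.309 CPM per kb, closer than the spread of BAD, and BCL2 was the least abundant at 0.316 ± 0.0147 CPM per kb. Which length was used set some of this order: per kb of the longest transcript, BBC3 (19.6) exceeded PMAIP1 (16.5) and BAX (18.4) exceeded BAK1 (13.9) in the controls.

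**Figure D1:**
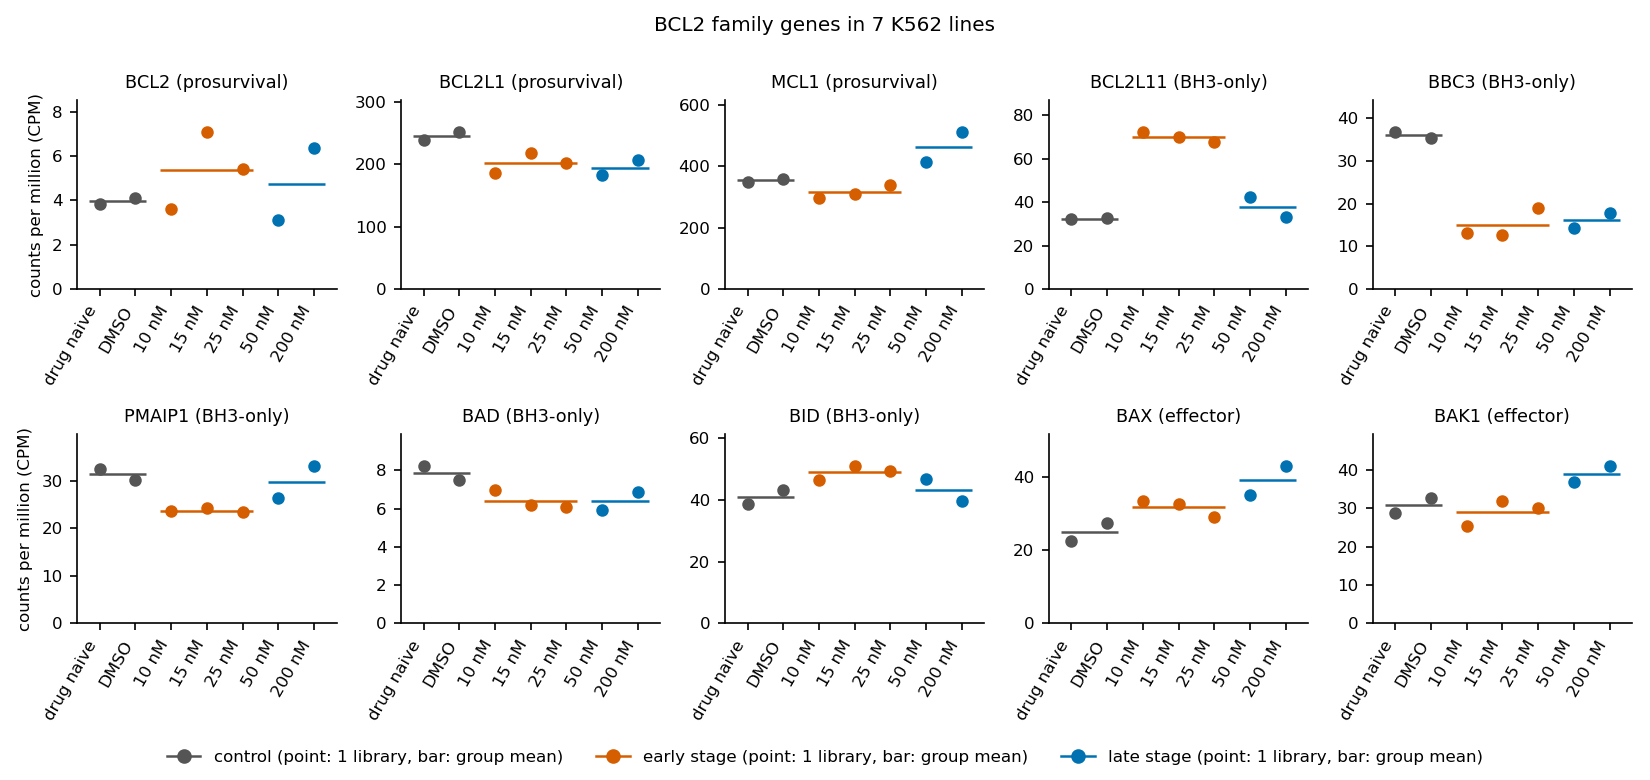
CPM (y axis, linear, from 0) of the 10 BCL2 family genes in each of the 7 K562 lines (x axis). Points are single libraries and horizontal bars are group means. BCL2L11 sits at 67.4 to 72.4 CPM in the 3 early stage lines and at 32.0 and 32.7 CPM in the controls, while BBC3 is at 12.7 to 19.0 CPM in all 5 DasR lines.

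Differences between stages and controls were tested with edgeR's quasi-likelihood test on the 10452 genes that reached 10 CPM in at least 2 libraries, with p-values adjusted over all of them (FDR) and a threshold of 0.005. Of the 10 members, 8 passed that limit. BCL2 and BAD did not, and their values come from the same fit on 14899 genes with at least 1 CPM in 2 libraries.

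In the early stage intermediates, BCL2L11 rose, BBC3 fell, and the other 6 members tested at this limit did not pass. Thus 2 of 8 members were called, 1 in each direction, where 18.0% of all tested genes were called, 7.92% higher and 10.1% lower, so the share of members called was not far from that of all genes. At a looser FDR of 0.05, 4 of 8 members passed, with BCL2L1 and PMAIP1 both lower, against 46.5% of all genes. In 7 of the 8 members the early stage lines did not overlap the controls in CPM, which held for 69.8% of all tested genes. The median log2 fold change of the 8 was -0.14, against 0.00 over all tested genes. Without the drug naive library no member passed the threshold, where 187 genes passed in all, and without the DMSO library none did, where 461 passed. A group left with 1 library in such a fit was assumed to vary like the other groups.

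In the late stage intermediates, 0 of 8 members passed the threshold by edgeR, where 7.98% of all genes did, 3.42% higher and 4.56% lower. DESeq2 called 2 members and 24.0% of all genes, and 5 of the 8 members and 45.9% of all genes had an unadjusted p under 0.05. At an FDR of 0.05, BCL2L1 and BBC3 were lower and BAX was higher, 3 of 8 members against 33.9% of all genes. The late stage lines did not overlap the controls in 6 of 8 members, against 67.7% of all genes. The median log2 fold change of the 8 was 0.13, against 0.00 over all tested genes.

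Late stage was set against early stage directly, which tests whether the stages differ. edgeR called 0.0% of all genes and 0 of 8 members at 0.005, DESeq2 called 2 members and 10.9% of all genes, and 4 of the 8 members and 33.0% of all genes had an unadjusted p under 0.05. At an FDR of 0.05, edgeR called 12.7% of all genes and 2 of 8 members, BCL2L11 lower and MCL1 higher in the late stage. The stages did not overlap in 5 of 8 members, against 53.3% of all genes. All 3 comparisons draw on the same libraries, and the comparisons with controls share both controls. BCL2 and BAD passed in none of the comparisons on the 14899 genes, where early stage lines had 14.3% and late stage lines 5.55% of genes called.

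**Figure D2:**
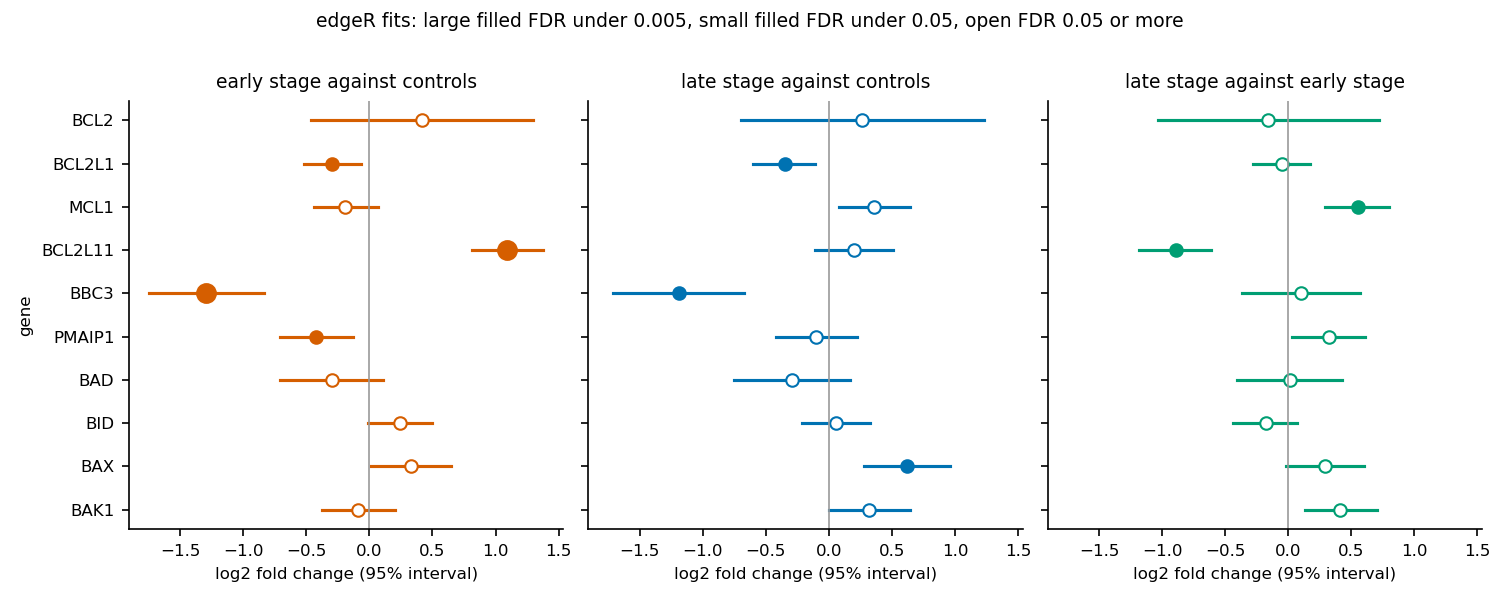
Fitted log2 fold change (x axis) of each BCL2 family gene (y axis) in the 3 comparisons, with lines for the 95% interval from the edgeR fit. Large filled points passed FDR 0.005, small filled points passed 0.05 and open points passed neither, with BCL2 and BAD from the 1 CPM table. BCL2L11 lies at 1.09 and BBC3 at -1.30 in the early stage panel, and BCL2L11 at -0.89 and MCL1 at 0.55 in the panel of late against early stage.

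Of the prosurvival genes, MCL1 (gene ID 4170, hg19 chr1:150533371-150552214, reverse strand) encodes a short-lived protein that binds BIM, NOXA and BAK. It was at 350 and 360 CPM in drug naive and DMSO cells, at 298, 310 and 338 CPM in the 10, 15 and 25 nM DasR intermediates, and at 413 and 513 CPM in the 50 and 200 nM DasR intermediates. All early stage lines were below both controls and both late stage lines were above them. ITGA2B and the T cell gene CD3D were also lower in the early than in the late stage lines. CD3D was at 2.73 to 8.47 CPM against 22.6 and 29.6 CPM. The other T cell and megakaryocyte markers did not follow. CD3E was at 0.947 to 1.4 CPM early and at 1.1 and 0.139 CPM late, and CD2, GP9, PF4 and GP1BB were at or near 0. The part of ITGA2B and CD3D in the MCL1 values was not tested. Late stage exceeded early stage 1.46-fold (log2 fold change 0.55, SE 0.11, FDR 0.025, 95% interval 1.23 to 1.74-fold). Against controls, the early stage log2 fold change was -0.19 (SE 0.11, FDR 0.198) and the late stage one was 0.36 (SE 0.12, FDR 0.0529). Without the 200 nM library the stage difference was 0.39 on the log2 scale (FDR 0.127), and without the 50 nM library it was 0.69 (FDR 0.00959). Without any 1 early stage library it was 0.51 to 0.60 and also missed 0.05 (FDR 0.0506 to 0.074).

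BCL2L1 (gene ID 598, hg19 chr20:30252255-30311792, reverse strand) encodes BCL-XL, and its short splice form encodes the proapoptotic BCL-XS. It was at 238 and 252 CPM in drug naive and DMSO cells, 186, 217 and 201 CPM at 10, 15 and 25 nM, and 182 and 207 CPM at 50 and 200 nM. All 5 DasR lines were below both controls, and the stages overlapped each other. The log2 fold change was -0.30 in the early stage (SE 0.10, FDR 0.0369) and -0.35 in the late stage (SE 0.11, FDR 0.0382), neither past 0.005. Between stages it was -0.05, with an interval of 0.824 to 1.13-fold. The counts do not separate the splice forms, and 41.3% of BCL2L1 exon bases lie opposite the long non-coding RNA ABALON. The library kit kept strand, but the strand setting of the counting is not given in the sources used here, so reads of the opposite strand may be included for this and other overlapping genes.

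BCL2 (gene ID 596, hg19 chr18:60790579-60987361, reverse strand), the founding member of the family, had 65 to 198 counts per library. Its level was 3.86 and 4.12 CPM in drug naive and DMSO cells, 3.60, 7.11 and 5.43 CPM at 10, 15 and 25 nM, and 3.12 and 6.35 CPM at 50 and 200 nM. Both stages overlapped the controls. The early stage log2 fold change was 0.42 (SE 0.38, FDR 0.404), and its interval ran from 0.725 to 2.47-fold, with the early stage lines themselves between 3.60 and 7.11 CPM.

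The BH3-only gene BCL2L11 (gene ID 10018, hg19 chr2:111876955-111926021, forward strand) encodes BIM, which binds all prosurvival members and activates BAX and BAK. Its level was 32.0 and 32.7 CPM in drug naive and DMSO cells, 72.4, 69.7 and 67.4 CPM in the 10, 15 and 25 nM DasR intermediates, and 42.3 and 33.2 CPM in the 50 and 200 nM DasR intermediates. The 3 early stage lines lay far above the other 4, and the 200 nM line sat next to the controls. BCL2L11 rose 2.14-fold in the early stage (log2 fold change 1.09, SE 0.12, FDR 0.000814, 95% interval 1.75 to 2.61-fold). The late stage log2 fold change was 0.20 (SE 0.13, FDR 0.273), and it rested on the choice of library: 0.37 (FDR 0.0487) without the 200 nM library and 0.00 (FDR 0.977) without the 50 nM library, when 1 library alone stood for the late stage. Late against early stage it was -0.89 (SE 0.12, FDR 0.0167), an interval of 0.441 to 0.656-fold, with -0.72 (FDR 0.0855) without the 200 nM library and -1.09 (FDR 0.00386, past 0.005) without the 50 nM library. The early stage log2 fold change stayed at 1.09 without drug naive cells (FDR 0.0108) and 1.06 without DMSO cells (FDR 0.0088). MIR4435-2HG, a non-coding gene on the opposite strand that shares 10.8% of BCL2L11 exon bases, is listed as MIR4435-1HG in the deposited symbols and had an early stage log2 fold change of -0.52 (FDR 0.00858). BUB1 and ANAPC1, the nearest tested genes on either side that do not overlap it, lie 441 and 443 kb away. They had early stage log2 fold changes of 0.01 and 0.24. The next tested genes outward were RGPD6, at -0.32 (FDR 0.142), and MERTK, 730 kb away, at 2.29 (FDR 0.00526). Late against early stage, MERTK was at -1.44 (FDR 0.0604), the same directions as BCL2L11, and a link between them was not tested.

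BBC3 (gene ID 27113, hg19 chr19:47724079-47736023, reverse strand) encodes PUMA, a BH3-only protein whose gene FOXO factors and the stress factor CHOP act on. It was at 36.9 and 35.3 CPM in drug naive and DMSO cells, 13.1, 12.7 and 19.0 CPM at 10, 15 and 25 nM, and 14.4 and 17.8 CPM at 50 and 200 nM. All 5 DasR lines were below both controls, and the stages overlapped each other. BBC3 fell to 0.407 of control in the early stage (log2 fold change -1.30, SE 0.20, FDR 0.00237, 95% interval 0.296 to 0.560). In the late stage the log2 fold change was -1.19 (SE 0.22, FDR 0.00781), past 0.005 by DESeq2 (FDR 3.28e-05) and limma-voom (FDR 0.00498) but not by edgeR. Between stages it was 0.10, with an interval of 0.775 to 1.49-fold. Leaving out either control or the 10 or 15 nM line ended the early stage call, with FDR values of 0.00747 to 0.0228 and log2 fold changes of -1.18 to -1.37. Its nearest tested neighbours SAE1 and CCDC9 had early stage log2 fold changes of -0.08 and -0.09.

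PMAIP1 (gene ID 5366, hg19 chr18:57567228-57571537, forward strand) encodes NOXA, which binds MCL1 and promotes its degradation. Its level was 32.4 and 30.2 CPM in drug naive and DMSO cells, 23.6, 24.2 and 23.3 CPM at 10, 15 and 25 nM, and 26.4 and 33.1 CPM at 50 and 200 nM. The early stage lines were tightly grouped below every other line, and the 200 nM line was the highest of the 7. The log2 fold change was -0.42 in the early stage (SE 0.12, FDR 0.0279) and -0.10 in the late stage (SE 0.14, FDR 0.612).

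BID (gene ID 637, hg19 chr22:18216904-18257536, reverse strand) links death receptors to mitochondria once caspase-8 has cut it. It was at 38.5 and 43.3 CPM in drug naive and DMSO cells, 46.4, 51.0 and 49.4 CPM at 10, 15 and 25 nM, and 46.8 and 39.7 CPM at 50 and 200 nM. The early stage lines were above both controls by a small margin, with a log2 fold change of 0.24 (SE 0.11, FDR 0.0995). BAD (gene ID 572, hg19 chr11:64037302-64052176, reverse strand), which is held inactive by phosphorylation and 14-3-3 binding, was between 5.91 and 8.24 CPM, lowest at 50 nM and highest in drug naive cells. Its early stage log2 fold change was -0.30 (SE 0.18, FDR 0.211) with an interval of 0.610 to 1.08-fold, and 23.7% of its exon bases lie opposite GPR137.

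The effector BAX (gene ID 581, hg19 chr19:49458072-49465055, forward strand) was at 22.6 and 27.5 CPM in drug naive and DMSO cells, 33.5, 32.6 and 29.0 CPM at 10, 15 and 25 nM, and 35.0 and 43.0 CPM at 50 and 200 nM. All 5 DasR lines were above both controls, and both late stage lines were above the early stage ones. The late stage log2 fold change was 0.62 (SE 0.15, FDR 0.0178, 95% interval 1.21 to 1.95-fold), past 0.005 by DESeq2 (FDR 0.00367) but not by edgeR. In the early stage it was 0.33 (SE 0.14, FDR 0.0828). The nearest tested genes on either side, FTL and NUCB1, had log2 fold changes of -0.31 and -0.64 in the early stage and 0.13 and -0.48 in the late stage.

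BAK1 (gene ID 578, hg19 chr6:33540324-33548070, reverse strand) was at 28.8 and 32.8 CPM in drug naive and DMSO cells, 25.5, 31.8 and 30.2 CPM at 10, 15 and 25 nM, and 37.0 and 41.1 CPM at 50 and 200 nM. Both late stage lines were above all other lines. The log2 fold change was 0.32 against controls (SE 0.14, FDR 0.105) and 0.41 against the early stage (SE 0.12, FDR 0.065), and neither passed. BAK1 has processed pseudogene copies, so some of its reads may have been assigned elsewhere.

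Summed by role, the 3 prosurvival genes were at 113 and 118 CPM per kb in drug naive and DMSO cells, at 92.3, 102 and 103 CPM per kb at 10, 15 and 25 nM, and at 110 and 132 CPM per kb at 50 and 200 nM. The 5 BH3-only genes ran from 36.9 CPM per kb at 50 nM to 44.7 CPM per kb in drug naive cells, with all 5 DasR lines below both controls. In CPM, without length, the BH3-only sum instead lay above the controls in the early stage, at 162, 164 and 165 against 148 and 149 CPM. The 2 effectors ran from 21.8 CPM per kb in drug naive cells to 35.2 CPM per kb at 200 nM. The prosurvival sum was thus lowest in the early stage and the effector sum highest in the late stage, with no test of either. Single members differed from the prosurvival sum in order: mean BCL2 was 3.99, 5.38 and 4.73 CPM in controls, early and late stage, and mean BCL2L1 was 245, 201 and 195 CPM. BCL2L11 and BBC3 moved in opposite directions in the early stage. The ratio of BBC3 to BCL2L11 per kb was 2.44 and 2.29 in drug naive and DMSO cells, 0.383, 0.385 and 0.597 at 10, 15 and 25 nM, and 0.719 and 1.14 at 50 and 200 nM.

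The ratio of BCL2L11 to MCL1 per kb was 0.0846 and 0.0839 in drug naive and DMSO cells and 0.225, 0.208 and 0.184 at 10, 15 and 25 nM. It was 0.0945 at 50 nM and 0.0596 at 200 nM, the lowest of the 7 lines. The ratio of BCL2L1 to MCL1 per kb was 1.01 and 1.04 in the controls, 0.924, 1.04 and 0.879 at 10, 15 and 25 nM, and 0.654 and 0.599 at 50 and 200 nM. Late stage lines thus held more MCL1 than BCL2L1 transcript per kb, where the controls held about equal amounts. These ratios are descriptions with no test, and RNA levels do not give protein levels, which for MCL1, BIM and NOXA are set in part by turnover.

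**Figure D3:**
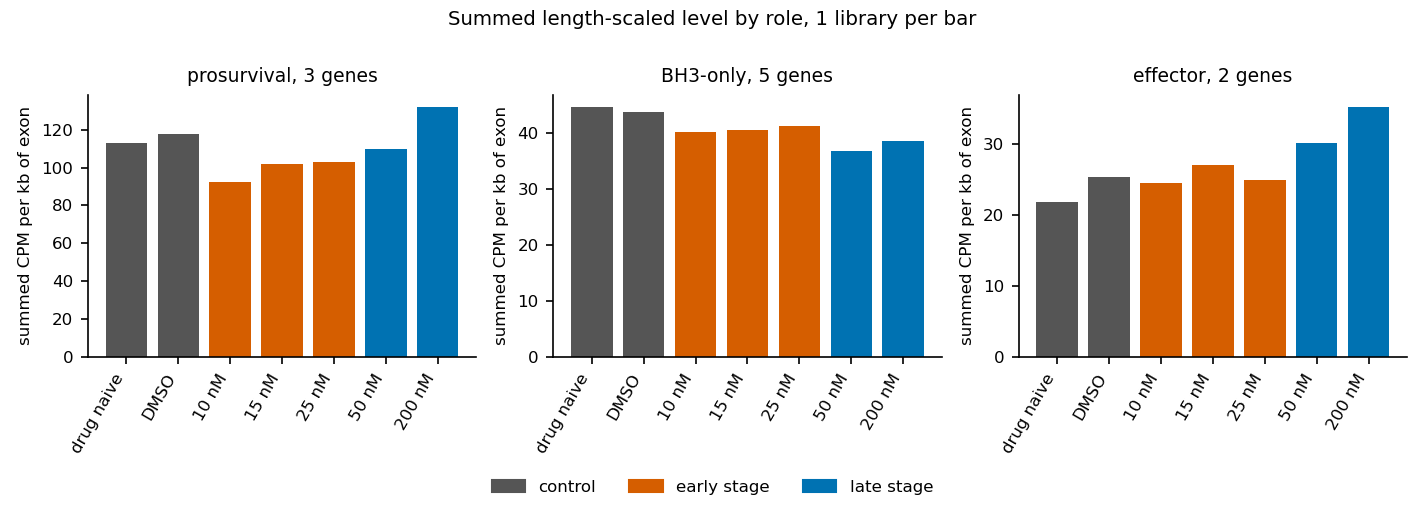
Summed CPM per kb of exon (y axis, from 0, a separate scale in each panel) of the prosurvival, BH3-only and effector genes in each of the 7 lines (x axis), 1 library per bar and coloured by group. The prosurvival sum is lowest at 10 nM (92.3) and the effector sum is highest at 200 nM (35.2).

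Of 85 further genes of the apoptosis pathway in 10 lists, 72 reached 10 CPM in at least 2 libraries. In early stage lines 7 passed as higher and 10 as lower, and in late stage lines 3 and 5. These were 23.6% and 11.1% of the 72, against 18.0% and 7.98% of all tested genes. Their median log2 fold changes were -0.04 and 0.06, close to the median of all genes. With each of the 7 libraries left out in turn, FOXO1, DDIT3, STAT5B and TNFRSF10B passed every time in the early stage. Of the 17 early stage calls 4 held without drug naive cells, 5 without DMSO cells and 5 without the 25 nM line, and of the 8 late stage calls 0, 1 and 2 did. The early stage call of APAF1 and the late stage call of VDAC3 passed in 0 of these 7 fits, and the early stage call of CFLAR and the late stage calls of CYCS, E2F1 and BCL2L13 in 1. The early stage calls of PIM1, YWHAQ, BCL2L13, VDAC3, TP73 and ATF4 passed in 2, and those of CASP2 and USP13 in 3. In the late stage, the calls of STAT5B and TNFRSF10B also passed in 3. All 17 and all 8 kept their direction without each library.

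The transcription factors known to act on these members included several of the largest differences among the listed genes. Of 13, all tested, early stage lines had 2 higher and 4 lower, and late stage lines had 1 higher and 3 lower. These were 46.2% and 30.8% of the list, against 18.0% and 7.98% of all tested genes. The list was chosen with earlier results of these data known, so its share is only a description. FOXO1 and TP73, the 2 higher in the early stage, reached 10 CPM only in DasR lines, so their being high there let them into the test. FOXO1, a factor that AKT signalling keeps out of the nucleus and that acts on BCL2L11, was at 2.14 and 2.75 CPM in drug naive and DMSO cells, 12.7, 15.5 and 15.2 CPM at 10, 15 and 25 nM, and 10.1 and 9.82 CPM at 50 and 200 nM. It rose 5.84-fold in the early stage (log2 fold change 2.55, SE 0.21, FDR 0.000266) and 4.0-fold in the late stage (FDR 0.00133). FOXO3, named after its values were seen, was at 46.6 and 46.0 CPM in drug naive and DMSO cells, 68.0, 73.2 and 66.0 CPM at 10, 15 and 25 nM, and 46.9 and 31.6 CPM at 50 and 200 nM. Its late against early stage log2 fold change was -0.82 (SE 0.17, FDR 0.0265).

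DDIT3, which encodes CHOP, fell from 108 and 93.8 CPM in drug naive and DMSO cells to between 24.1 and 31.6 CPM in the 5 DasR lines. Its log2 fold change was -1.94 in the early stage (SE 0.13, FDR 0.00017) and -1.83 in the late stage (SE 0.15, FDR 0.000668). ATF4, which acts upstream of DDIT3 in the integrated stress response, fell in the early stage (log2 fold change -0.61, SE 0.11, FDR 0.00381). The STAT5 genes also fell in the early stage, STAT5A by 1.21 (FDR 0.0013) and STAT5B by 1.02 (FDR 0.000412) on the log2 scale. STAT5B fell by 0.93 in the late stage (FDR 0.00141), a call that passed in 3 of the 7 fits with a library left out. The transcription factor gene TP73 rose in the early stage (log2 fold change 2.22, SE 0.37, FDR 0.00319). E2F1, a cell cycle factor, fell in the late stage (log2 fold change -0.94, SE 0.14, FDR 0.00344).

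Among kinases and 14-3-3 proteins acting on BAD and BIM, 2 of 16 were higher and 1 was lower early in the escalation, and none passed by edgeR in the late stage. PIM1, a STAT5 target kinase that phosphorylates BAD, was at 1001 and 1057 CPM in drug naive and DMSO cells, 398, 367 and 383 CPM at 10, 15 and 25 nM, and 466 and 826 CPM at 50 and 200 nM. It fell to 0.368 of control in the early stage (log2 fold change -1.44, SE 0.20, FDR 0.00188). The 14-3-3 genes YWHAH and YWHAQ rose in the early stage by log2 fold changes of 0.81 (FDR 0.000644) and 0.55 (FDR 0.00309).

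In the death receptor arm, 2 of 9 tested genes fell in early stage lines and 1 fell in late stage lines. TNFRSF10B, the TRAIL receptor DR5 and a CHOP target, was at 210 and 190 CPM in drug naive and DMSO cells, 43.6, 32.9 and 41.5 CPM at 10, 15 and 25 nM, and 59.7 and 79.9 CPM at 50 and 200 nM. Its log2 fold change was -2.36 in the early stage (SE 0.17, FDR 0.000173) and -1.54 in the late stage (SE 0.18, FDR 0.0018). The late stage call of TNFRSF10B passed in 3 of the 7 fits with a library left out. CFLAR, which encodes the caspase-8 inhibitor FLIP, fell in the early stage (log2 fold change -0.93, SE 0.17, FDR 0.00423), from 64.0 and 64.4 CPM in the controls to 37.5, 26.4 and 38.3 CPM. It was at 71.7 and 81.7 CPM in the late stage lines, above both controls.

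Downstream of the mitochondria, 1 of 10 tested apoptosome and caspase genes was higher and 1 lower in the early stage, and 1 was higher in the late stage. CASP2 rose in the early stage (log2 fold change 0.77, SE 0.11, FDR 0.00168), and APAF1, the scaffold of the apoptosome, fell (log2 fold change -0.64, SE 0.11, FDR 0.00365), a call lost whichever library was left out (highest FDR 0.0246). CYCS, which encodes cytochrome c, was at 290 and 345 CPM in drug naive and DMSO cells and at 600 and 720 CPM at 50 and 200 nM, and rose 2.05-fold in the late stage (log2 fold change 1.03, SE 0.14, FDR 0.00279). None of 6 tested genes for inhibitor of apoptosis proteins and their antagonists passed in either stage by edgeR. The most abundant of them were BIRC6, with an early stage log2 fold change of 0.16 (FDR 0.335), and XIAP, with -0.46 (FDR 0.00879).

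Of 6 genes for turnover of MCL1 and NOXA proteins, the deubiquitinase gene USP13 rose in the early stage (log2 fold change 2.06, SE 0.33, FDR 0.003), from 3.67 and 8.90 CPM in drug naive and DMSO cells to 23.7, 29.6 and 26.1 CPM. USP13 also reached 10 CPM only in DasR lines. Of 6 genes for outer membrane channels and BAX inhibitors, 1 was higher and 1 lower in the early stage. VDAC3 was higher (log2 fold change 0.43, SE 0.08, FDR 0.00428) and also in the late stage (0.59, FDR 0.00304, a call lost whichever library was left out), and TMBIM6, which encodes BAX inhibitor 1, was lower (log2 fold change -0.78, SE 0.09, FDR 0.00106).

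Of the 14 other BCL2 family genes, 6 reached 10 CPM. BCL2L13, a mitophagy receptor gene 3.28 kb from BID, fell in both stages, with log2 fold changes of -0.73 (SE 0.11, FDR 0.00257) and -0.90 (SE 0.13, FDR 0.00302), beside the 0.24 and 0.06 of BID. BCL2L2, which encodes the prosurvival BCL-W, had an early stage log2 fold change of -0.13 (FDR 0.254). BNIP3L and BNIP3 differed more between the controls than between stages, with BNIP3L at 233 CPM in drug naive and 105 CPM in DMSO cells. In the 1 CPM table, the effector relative BOK rose in the early stage (log2 fold change 1.36, SE 0.24, FDR 0.00482), from 2.33 and 2.41 CPM to 5.47, 7.11 and 5.83 CPM. BCL2A1, BCL2L10, HRK and BIK stayed under 0.5 CPM in every line.

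Between stages, 19 of the 72 further genes passed an FDR of 0.05, 26.4% against 12.7% of all genes. In the death receptor arm 5 of 9 passed, all higher in the late stage: CFLAR (log2 fold change 1.16, FDR 0.0167) and TNFRSF10B (0.82, FDR 0.0256), and, named after their values were seen, TNFRSF1A, CASP10 and TNFRSF10A. The late stage level of TNFRSF10B was still below control.

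**Figure D4:**
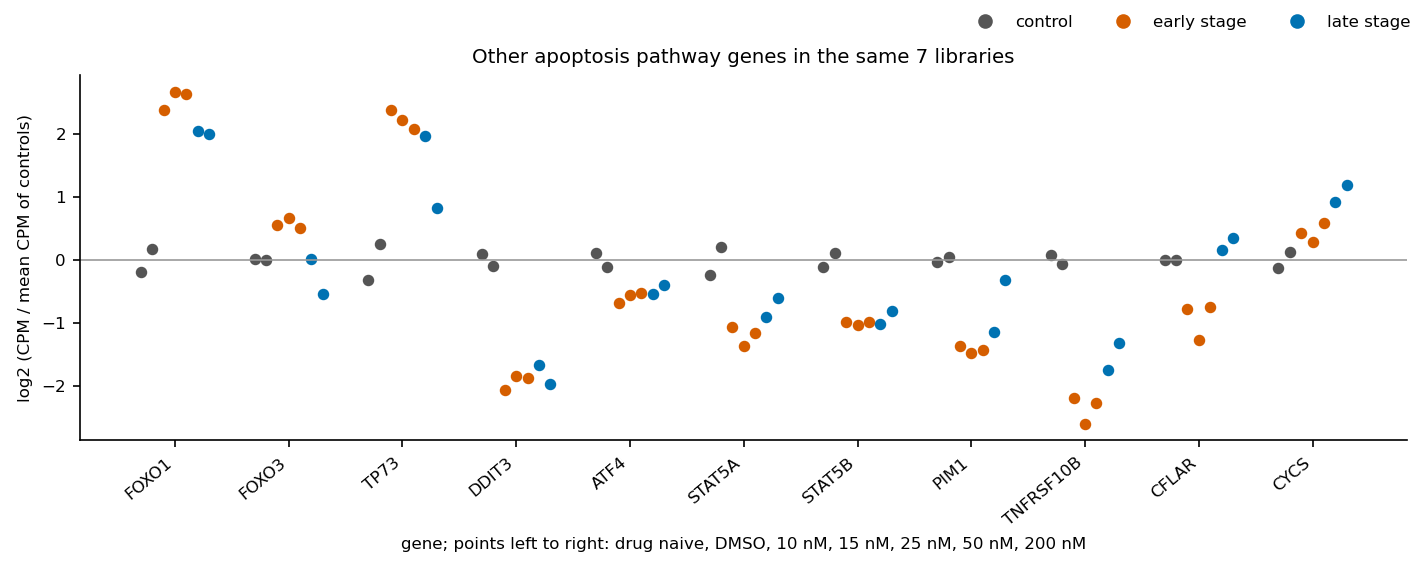
CPM relative to the mean of the 2 controls (y axis, log2 scale, 0 marks the control mean) for 11 other apoptosis pathway genes (x axis), with 1 point per library ordered from drug naive to 200 nM and coloured by group. FOXO1 is high in all 5 DasR lines and DDIT3 is low in all 5, while CFLAR is below control in the early stage lines and above it in the late stage lines.

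Patterns over the 7 lines were compared with all 10451 other tested genes by Pearson's r of log2 CPM, a description over 7 related lines. The closest to BCL2L11 were CSPG5 (r = 0.994), the transcription factor gene TCF4 (0.991), KIAA0754 (0.988), PAGE2 (0.988) and SSX2IP (0.987). The closest to MCL1 were SH2D2A (0.991), SDPR (0.99), RPS6KA1 (0.99), C1orf226 (0.986) and STARD8 (0.986). The closest to BCL2L1 were ST3GAL4 (0.991), EIF2AK4 (0.988), PIF1 (0.987), FAM219B (0.984) and GMPPA (0.984). CSPG5 and PAGE2 reached 10 CPM only in the early stage lines, and C1orf226 only in the late stage lines. The 10 CPM limit thus admitted these genes because of the pattern they share with the member. TCF4 was at 57.2 and 54.1 CPM in drug naive and DMSO cells, 125, 133 and 113 CPM at 10, 15 and 25 nM, and 72.3 and 51.6 CPM at 50 and 200 nM.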

How the data were processed

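RNA-seq libraries of 7 K562 lines were made by the authors with a directional kit after ribosomal depletion and sequenced as paired reads. Per the paper, STAR was the aligner and hg19 the build. The authors deposited raw counts per gene, attributed to featureCounts in the submitters' processing notes. Annotation version and strand setting are not given in the sources used here. The deposited tables of fold changes, p-values and FDR values were not used, except for symbols and the gene lengths in bases that the authors deposited. All columns of the count table were mapped, and 0 per-sample columns were left unused.

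Genes with 10 CPM in at least 2 libraries were kept, TMM scaling was applied, and edgeR 4.0.16 under R 4.3.3 fitted a mean for each of the 3 groups to all 7 libraries, with adjustment by the Benjamini-Hochberg method. Intervals are 95%. CPM used total counts. The common dispersion was 0.026, or a biological coefficient of variation of 0.161. Pairs of lines of a group differed by more than sampling noise (chi-square per degree of freedom 14.5 to 45). Exon length was the union of exons in a GRCh37 annotation, the same build as hg19. Alternatives were DESeq2 1.42.0, limma-voom (limma 3.58.1), other scalings and filters, and each library left out.

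All 10 members are named. From the other lists, genes past FDR 0.005 are named (at most 4 per direction and list, by size), or the 2 most abundant where none passed. The members and lists were chosen with earlier results of these data known.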

Additional observations from a re-analysis of the deposited data

Results flagged for a closer look

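Members were singled out where late stage differed from early stage at an FDR under 0.05 by edgeR. BCL2L11 was lower in the late stage (FDR 0.0167), with both late stage lines below all 3 early stage lines. MCL1 was higher in the late stage (FDR 0.025), with both late stage lines above all 3 early stage lines. Without the 200 nM library the log2 fold change was -0.72 for BCL2L11 (FDR 0.0855) and 0.39 for MCL1 (FDR 0.127), against -0.89 and 0.55 with both. Without the 50 nM library it was -1.09 (FDR 0.00386) and 0.69 (FDR 0.00959). In each of these fits the late stage was 1 library, assumed to vary like the other groups. Groups of 2 and 3 lines were too small to look for single outlying samples.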

How the results depend on the processing

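Each result was recomputed with RLE or total count scaling, DESeq2, limma-voom, a 1 CPM or no filter, the compared groups alone, an FDR of 0.05, and each library left out. A group left with 1 library was assumed to vary like the others. Of 414 refitted member fold changes, 388 kept their direction and their side of the 0.005 threshold. Most member values had an FDR well above 0.005, so staying on that side was nearly fixed in advance. The count therefore says little about the early stage calls of BCL2L11 and BBC3, which were lost in some refits.

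Members called in the early stage were 2, against 4 at an FDR of 0.05 and 0 to 2 with a library left out. In the late stage they were 0, against 2 by DESeq2 (BBC3 and BAX), 1 by limma-voom and 3 at 0.05, and 0 to 0 with a library left out. Between stages they were 0, against 2 by DESeq2, 1 without a filter, 2 at 0.05 and 0 to 1 with a library left out, the 1 being BCL2L11 without 50 nM. All genes called in the early stage were 1881, against 3548 by DESeq2, 4865 at 0.05 and 187 to 2074 with a library left out, the lowest without drug naive cells. In the late stage they were 834, against 2503 by DESeq2, 257 with the compared groups alone, 1287 without a filter, 3542 at 0.05 and 30 to 601 with a library left out, the lowest again without drug naive cells. Between stages they were 0, against 1135 by DESeq2, 295 without a filter, 1328 at 0.05 and 0 to 200 with a library left out, the highest without the 50 nM line. The cause was not tested. The 2 members below 10 CPM were called under none of these settings.

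The sign changed in 13 refits, none of a called value. Late against controls, it did for BCL2 without 200 nM (-0.34), PMAIP1 without 50 nM (0.05), and BID without drug naive cells (-0.01) or 50 nM (-0.07). With a library left out these ranged from -0.34 to 0.68 for BCL2, -0.26 to 0.05 for PMAIP1 and -0.07 to 0.18 for BID. Late against early, it did for BCL2 without 15 nM (0.09) or 50 nM (0.27), BCL2L1 without 50 nM (0.03), BBC3 without 15 nM (-0.01) or 200 nM (-0.05), and BAD with total count scaling (-0.01) or without 15 nM (-0.02), 25 nM (-0.02) or 200 nM (-0.10). With a library left out these ranged from -0.75 to 0.27 for BCL2, -0.14 to 0.03 for BCL2L1, -0.05 to 0.31 for BBC3 and -0.10 to 0.12 for BAD. Per kb of the longest transcript, MCL1 led in the controls at 78.0 against 75.1 CPM per kb for BCL2L1. With the deposited lengths, an alternative chosen after seeing the data, BCL2L1 led at 95.6 against 88.7. Under both lengths BBC3 exceeded PMAIP1 and BAX exceeded BAK1 in the controls, the reverse of the order per kb of all exons. BCL2 had 65 to 198 reads per library, and 1 library per line leaves line and library inseparable.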

Other observations

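BMF, a BH3-only gene below 10 CPM that was named after its values were seen, was at 5.33 and 5.49 CPM in drug naive and DMSO cells, 8.56, 8.91 and 5.38 CPM at 10, 15 and 25 nM, and 3.50 and 1.62 CPM at 50 and 200 nM. In the 1 CPM table its late against early stage log2 fold change was -1.55 (SE 0.37, FDR 0.0406).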
